A study of Mus musculus with 12 samples.

Results

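Gata4, Gata5, Gata6, Cdx1, Cdx2, Hnf4a, Hnf4g, Onecut2 and Klf4 encode transcription factors that set or maintain the identity of intestinal epithelium. They were chosen by name and matched by Ensembl gene ID. All 9 were found among the 55487 genes of the count table, and all 9 were among the 19581 genes with enough counts to be tested. RNA was sequenced from 12 libraries of C57BL/6 mice, with 3 per group. Tissue libraries of both regions, called SI tissue and LI tissue, were crypts taken directly from the small and the large intestine, with 1 mouse per library. SI monolayers and LI monolayers were crypt-derived epithelial cells grown on Matrigel for 24 h in control medium containing Wnt3a, EGF, Noggin and R-spondin, without drug, with pooled wells as 1 library. No group carried a transgene or mutation, and the mice were young adults of both sexes by the study's methods. SI monolayers were derived from jejunum alone, while the label of SI tissue names only the small intestine. LI crypts were released by Collagenase D and Dispase before EDTA and SI crypts by EDTA alone, so that a difference between regions and a difference in isolation cannot be told apart. The plated crypts of both regions came from the same mice by the study's methods, although the labels do not tie single libraries to each other. Nothing says that the pooled wells of the 3 libraries of a monolayer group came from separate cultures or mice, so their spread may be technical.

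CDX1 and CDX2 are homeodomain factors that separate intestinal from gastric epithelium. GATA4, GATA5 and GATA6 are zinc finger factors, and GATA4 is known for marking duodenum and jejunum but not distal ileum or colon. HNF4A and HNF4G are nuclear receptors that drive enterocyte genes for lipid handling and the brush border, ONECUT2 is a cut-homeodomain factor found in proximal intestine, and KLF4 is a zinc finger factor of differentiated and goblet cells.

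The 250 bases before the RefSeq transcription start (GRCm38.p6) were searched on both strands for a short motif of each member's family, to show what sequence lies in front of members whose levels the results compare. The motifs were AGATAA for GATA factors, TTTATNG for CDX, CAAAGNNCA for HNF4, GGGNGTGG for KLF and ATTGATT for ONECUT, which occur in 9.99%, 9.81%, 5.49%, 15.9% and 2.61% of 32851 such windows. Windows were at hand for Gata5, Cdx2, Hnf4a and Klf4. The windows of Gata5 and Cdx2 each hold 1 KLF motif, and the upstream window of Hnf4a holds an ONECUT motif and, 1 base further on, a GATA motif. A second window of Hnf4a and that of Klf4 hold none of the 5 motifs. The 3 windows with a motif are given 5′ to 3′ on the strand of the gene, with the motif in capitals. Gata5 and Hnf4a show the KLF motif and the ONECUT motif as their reverse complements. The Gata5 window is chr2:180334680-180334929 on the minus strand, the Cdx2 window chr5:147307250-147307499 on the minus strand and the Hnf4a window chr2:163506607-163506856 on the plus strand.
Gata5: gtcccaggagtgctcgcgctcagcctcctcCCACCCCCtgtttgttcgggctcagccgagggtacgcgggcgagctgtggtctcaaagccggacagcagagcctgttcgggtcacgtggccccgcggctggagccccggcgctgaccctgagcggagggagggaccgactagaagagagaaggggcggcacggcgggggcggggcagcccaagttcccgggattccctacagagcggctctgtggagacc
Cdx2: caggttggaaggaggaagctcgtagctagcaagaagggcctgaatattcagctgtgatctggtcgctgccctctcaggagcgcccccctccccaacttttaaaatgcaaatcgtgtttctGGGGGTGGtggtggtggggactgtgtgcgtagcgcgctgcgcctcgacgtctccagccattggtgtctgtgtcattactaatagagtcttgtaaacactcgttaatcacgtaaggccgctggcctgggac
Hnf4a: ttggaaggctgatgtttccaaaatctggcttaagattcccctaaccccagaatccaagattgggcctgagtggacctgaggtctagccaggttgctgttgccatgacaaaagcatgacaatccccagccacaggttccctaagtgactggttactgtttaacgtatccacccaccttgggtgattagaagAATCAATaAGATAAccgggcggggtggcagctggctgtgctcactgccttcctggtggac
In Gata5 the motif spans the bases 220 to 213 before the start and in Cdx2 the bases 130 to 123. In Hnf4a the ONECUT motif spans 60 to 54 and the GATA motif 52 to 47. The Gata5 window has 70.0% G and C and that of Cdx2 55.2%, against a median of 52.4% over all windows. A match is a run of letters and does not show binding. All starts here are those of RefSeq. By the GENCODE gene positions given below, each of the 3 windows printed reaches into its gene, so it is not wholly upstream by those positions.

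The libraries held 59016196 to 76216530 counts, and 3 counts, taken as the limit of a count of 0, corresponded to 0.0394 to 0.0508 CPM (counts scaled to the library total), a limit that covers counting error only. Epcam, the epithelial adhesion molecule, lay between 81695 and 133955 normalized counts in all 12 libraries. Among 6 markers of the large intestine, 5 were higher in LI than in SI in both preparations, Hoxb13 with group means of 24543 in LI tissue and 46.3 in SI tissue. By the rule for calls given below, 11.1% of all tested genes were higher in LI tissue, and 21.2% differed between monolayers. SI tissue libraries differed in their makeup: the summed normalized counts of 7 Paneth cell markers were 324866, 615823 and 1540390 in replicates 1, 2 and 3. LI tissue replicate 1 held more of the muscle genes Myh11 (676 against 47.6 and 19.6 normalized counts) and Des (496 against 36.6 and 16.1) than the other two. Immune cell markers summed to 13400.5 to 14499 and 3859.9 to 4083 in tissue and monolayers of SI, and 5344 to 5995 and 789 to 897 in those of LI. In each region 8 of 10 were lower in monolayers, with Ptprc, the pan-leukocyte marker, at means of 3899, 159, 1049.7 and 51.4. By the same rule 16.4% of all tested genes were lower in SI monolayers and 23.5% in LI monolayers. The sums include Lyz2, which stood at 34.1 CPM per kilobase of exon in SI tissue and 31.4 in SI monolayers. There Kit stood at 4.33 and 1.38, and Cd8a at 12.2 and 0.707. The part of such cells in the results below was not tested. The RNA is that of all cells of a preparation, so fewer cells of a type and less RNA per cell cannot be told apart.

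Of the 4 comparisons of groups, SI tissue against LI tissue called the most members. A gene was called where the edgeR adjusted p was under 0.05 and the log2 fold change reached 1 in size. By that rule 7 of 9 members differed between SI and LI tissue, where 22.7% of all tested genes did. Of these, 5 were higher in SI (11.6% of all genes) and 2 lower (11.1%). Between SI and LI monolayers 4 members differed, all higher in SI, with 21.2% of all genes called and 12.4% called higher. With culture for 24 h, 1 of 9 was called in SI, lower, and 5 of 9 were called in LI, 1 higher and 4 lower. The difference between these counts was not itself tested. Of all tested genes 26.1% were called in SI culture (16.4% lower) and 38% in LI culture (14.5% higher and 23.5% lower). By the adjusted p alone, 6 members passed in SI culture (59.6% of all genes), 8 in LI culture (68.7%), 8 between tissues (53.9%) and 9 between monolayers (51.8%). All values below are the authors' normalized counts, library by library in the order of replicates 1, 2 and 3, and differences are log2 fold changes ± SE from edgeR on 3 libraries per group.

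**Figure D1:**
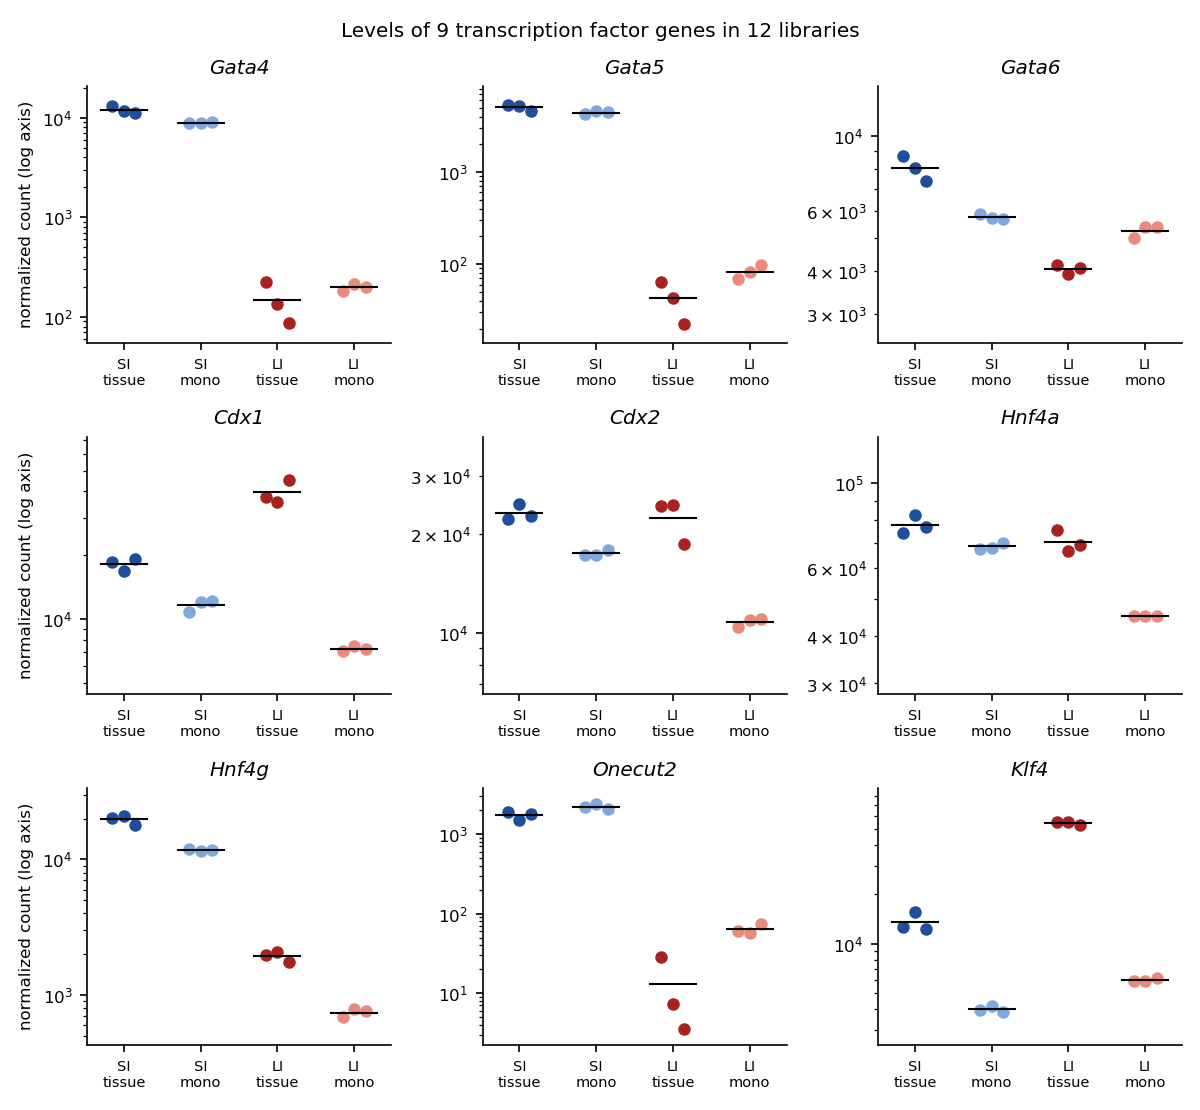
Normalized counts (log axis, a separate scale per gene) of the 9 genes in each of the 12 libraries, with 1 point per library and a line at the mean of each group of 3. Gata4, Gata5 and Onecut2 separate SI from LI by more than an order of magnitude in both preparations, whereas Hnf4a and Gata6 each span less than a factor of 2 between their group means.

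Gata4 was the most abundant of the GATA genes of the SI and low in the LI. The gene (chr14:63198922-63271692, minus strand, GRCm38) counted 12942, 11668 and 11128 in SI tissue and 8737, 8758 and 9078 in SI monolayers. In the LI it counted 226, 135 and 87.5 in tissue and 181, 216 and 198 in monolayers. Every SI library lay far above every LI library, by 6.37 ± 0.26 in tissue (adjusted p = 2.51e-08) and 5.51 ± 0.25 in monolayers (adjusted p = 6.01e-08), or 82.5-fold and 45.7-fold. The LI libraries held 1.89, 1.13 and 0.734 percent of the SI tissue mean and 2.04, 2.44 and 2.23 percent of the SI monolayer mean. SI monolayers lay below SI tissue without overlap, but the change of -0.39 ± 0.19 missed the test (adjusted p = 0.111). In LI the values of both preparations overlapped (log2 fold change 0.46 ± 0.26, adjusted p = 0.153).

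Gata5 followed the same order at a lower level. Its GRCm38 position is chr2:180325133-180334699 on the minus strand. SI tissue counted 5366, 5190.2 and 4555 and SI monolayers 4255, 4559 and 4451, 2 overlapping sets (log2 fold change -0.15 ± 0.15, adjusted p = 0.401). LI tissue counted 63.9, 43.0 and 22.3 and LI monolayers 68.4, 81.5 and 97.8. SI exceeded LI by 6.92 ± 0.22 in tissue (adjusted p = 2.12e-10) and 5.77 ± 0.2 in monolayers (adjusted p = 5.7e-10). The rise from LI tissue to LI monolayers, 0.99 ± 0.27 (adjusted p = 0.00607), fell just short of the fold minimum and was called without LI tissue replicate 1 (1.38) or LI monolayer replicate 1 (1.05). An antisense gene, Gata5os, shares 258 exon bases with Gata5. It counted 51.8 to 60.5 in SI tissue and 0 to 1.88 in LI tissue, and reads of both cannot be told apart where the counting took no account of strand, which is not given in the sources used here.

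Gata6 was present in both regions. It lies at chr18:11052064-11085635 on the plus strand. SI tissue counted 8756, 8039 and 7392, SI monolayers 5889, 5720.3 and 5683, LI monolayers 5022, 5393 and 5394 and LI tissue 4168, 3942 and 4079, in that falling order with no overlap between neighbours. The excess of SI over LI was 1.03 ± 0.058 in tissue (adjusted p = 3.76e-10) and 0.16 ± 0.057 in monolayers (adjusted p = 0.0289). The tissue value sits on the fold minimum, with 0.95 under upper quartile scaling and 0.95 to 0.97 without SI tissue replicate 1 or without any 1 of the 6 monolayer libraries. Culture was accompanied by opposite differences by region, -0.45 ± 0.057 in SI (adjusted p = 4.19e-06) and 0.42 ± 0.057 in LI (adjusted p = 6.19e-06), both under the fold minimum. The transcript 1010001N08Rik shares 93 exon bases with Gata6 on the other strand and counted 439 to 589 and 190 to 240.0 in tissue and monolayers of SI, and 223 to 254 and 66.2 to 128 in those of LI.

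Per kilobase of exon, where levels of different genes can be compared, the 3 GATA genes made up an SI mixture and an LI pool of almost Gata6 alone. In SI tissue Gata4 took 52.4% ± 0.813 (SD, n = 3) of their summed CPM per kb, Gata5 26.4% ± 0.78 and Gata6 21.3% ± 0.119. SI monolayers kept a similar makeup, with 50.4% ± 0.665 for Gata4, 30.0% ± 0.804 for Gata5 and 19.7% ± 0.63 for Gata6. Gata6 took 92.5% ± 3.16 in LI tissue and 91.4% ± 0.475 in LI monolayers. The sum of the 3 genes was 86.7 ± 6.6 CPM per kb in SI tissue against 9.78 ± 0.44 in LI tissue, and 68.7 ± 1.08 in SI monolayers against 13.2 ± 0.52 in LI monolayers. The remaining family members were rare. Gata1 was not tested, with group means of at most 1.44 normalized counts, and Gata2 and Gata3, genes of blood and other lineages, reached at most 0.146 and 0.15 CPM per kb. Gata2 fell in LI monolayers (-3.22 ± 0.6, adjusted p = 0.000163) and Gata3 in SI monolayers (-3.62 ± 0.75, adjusted p = 0.000559). Immune cell markers were lower in monolayers of both regions, but Gata3 is itself on that list. Its fall in SI is among those counted there.

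**Figure D2:**
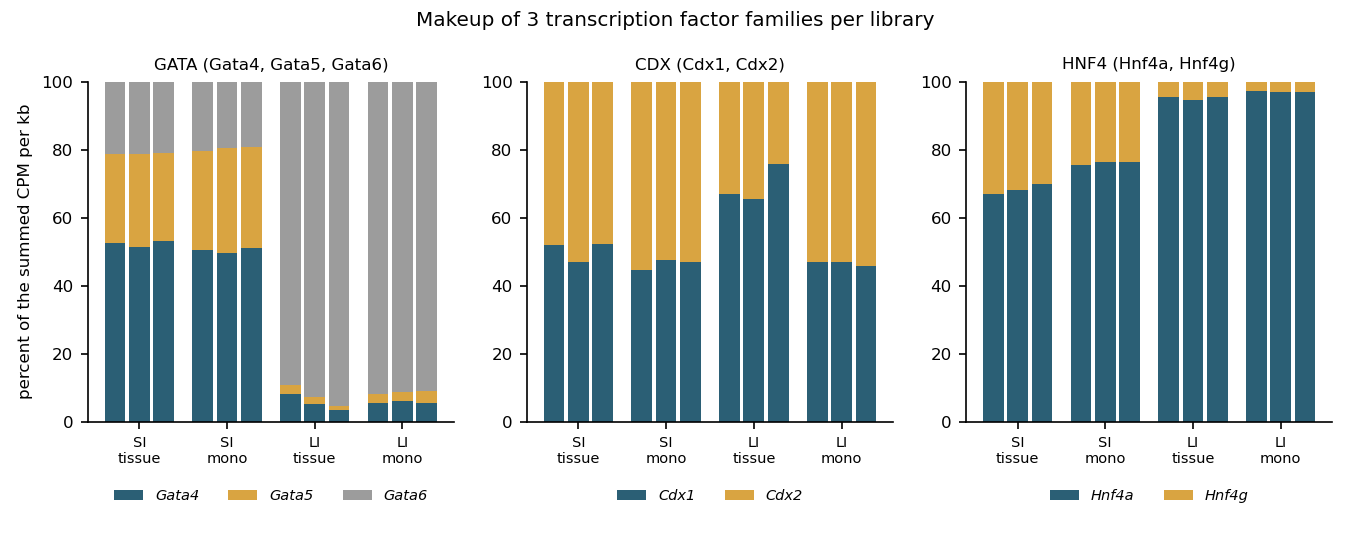
Share of each gene in the summed CPM per kilobase of exon of its family, 1 bar per library in the order of replicates 1, 2 and 3. Gata6 fills nearly the whole GATA bar in LI, Cdx1 takes its largest share in LI tissue, and Hnf4g shrinks from 31.8% of the HNF4 bar in SI tissue to 4.83% in LI tissue.

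Onecut2 was the member with the largest fold between regions in tissue. The gene (chr18:64340020-64400987, plus strand) counted 1864, 1503 and 1804 in SI tissue and 2152, 2358 and 2069 in SI monolayers. In LI tissue it counted 28.2, 7.32 and 3.57, from 30, 8 and 4 raw counts, and in LI monolayers 59.7, 57.4 and 73.1. Its excess in SI was 7.1 ± 0.33 in tissue (adjusted p = 1e-08), rank 240 of the 19581 tested genes by size, and 5.13 ± 0.27 in monolayers (adjusted p = 3.19e-08). Onecut2 was the only member called higher in monolayers, by 2.34 ± 0.42 in LI (adjusted p = 0.000465). Without LI tissue replicate 1, the library with the muscle genes, that value was 3.56 and the tissue difference 8.31. In SI, monolayers lay above tissue without overlap (0.38 ± 0.21), which missed the test (adjusted p = 0.137). Onecut3, a relative also known from gut and nervous tissue, was higher in SI too, with means of 23.1 and 26.5 in tissue and monolayers of SI, and 1.22 and 0.642 in those of LI (4.13 ± 0.92 in tissue, adjusted p = 0.0012). Onecut1 had no count in any library.

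The HNF4 pair divided by region. Hnf4a, at chr2:163506808-163572910 on the plus strand, was high everywhere, with 74141, 82516 and 76675 in SI tissue, 75359, 66543 and 69001 in LI tissue and 67378, 67803 and 69904 in SI monolayers. LI monolayers counted 45055, 45080.1 and 45093, below all other libraries. The range of SI tissue overlapped that of LI tissue, which overlapped that of SI monolayers. SI exceeded LI by only 0.19 ± 0.054 in tissue (adjusted p = 0.00786) and 0.63 ± 0.054 in monolayers (adjusted p = 6.58e-08), both under the fold minimum. Hnf4a was lower in monolayers by -0.15 ± 0.054 in SI (adjusted p = 0.0236) and -0.59 ± 0.054 in LI (adjusted p = 5.03e-08), again without reaching it.

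Hnf4g (chr3:3508030-3658052, plus strand) counted 20084, 21022 and 18094 in SI tissue and 11909.5, 11489.6 and 11748 in SI monolayers. LI tissue counted 1987, 2084 and 1743 and LI monolayers 684, 786 and 758, so that all 4 groups stood apart. SI exceeded LI by 3.39 ± 0.073 in tissue (adjusted p = 6.47e-15) and 4.01 ± 0.077 in monolayers (adjusted p = 4.32e-15). In culture Hnf4g fell in LI by 2.53-fold (log2 fold change -1.34 ± 0.071, adjusted p = 6.79e-11). In SI it was lower by 1.64-fold (-0.72 ± 0.067, adjusted p = 1.17e-07), short of the fold minimum. Per kilobase, Hnf4g was 31.8% ± 1.5 of the HNF4 pair in SI tissue against 4.83% ± 0.535 in LI tissue, and 23.9% ± 0.494 in SI monolayers against 2.94% ± 0.201 in LI monolayers. The pair summed to 351 ± 17.2 CPM per kb in SI tissue against 221 ± 11.9 in LI tissue, and 284 ± 4.96 in SI monolayers against 144 ± 0.609 in LI monolayers. Hnf4aos, an antisense gene inside the Hnf4a locus that shares no exon base with it, counted 131 to 258 in SI tissue and 9.12 to 22.3 after culture, and at most 5.36 in any LI library.

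Cdx1 and Cdx2 were both strongly expressed in every group, and Cdx1 changed its order between regions with culture. Cdx1 (chr18:61018862-61036199, minus strand) counted 37779.6, 35707 and 45012 in LI tissue and 18566, 16894 and 19169.7 in SI tissue, so that every LI tissue library lay above every SI one. SI monolayers counted 10797, 12114 and 12164 and LI monolayers 7114, 7474 and 7241, the opposite order, again without overlap. SI against LI was -1.08 ± 0.083 in tissue (adjusted p = 2.68e-08) and 0.71 ± 0.083 in monolayers (adjusted p = 2.82e-06), the latter under the fold minimum. The tissue value was -0.97 without LI tissue replicate 3, the highest library. In LI Cdx1 fell 5.26-fold with culture (-2.4 ± 0.086, adjusted p = 1.4e-12), and in SI it was 1.52-fold lower (-0.6 ± 0.082, adjusted p = 1.14e-05), under the fold minimum.

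Cdx2 (chr5:147300805-147307270, minus strand) counted 22173, 24618 and 22609.8 in SI tissue and 24211, 24377 and 18631 in LI tissue, overlapping values (0.087 ± 0.078, adjusted p = 0.371). SI monolayers counted 17263, 17283 and 17801 and LI monolayers 10412, 10906 and 11035. SI monolayers exceeded LI monolayers by 0.72 ± 0.078 (adjusted p = 1.14e-06), under the fold minimum. Cdx2 fell 2.01-fold in LI (-1.01 ± 0.079, adjusted p = 9.56e-09), a call that was lost without LI tissue replicate 1 (-0.96) or 2 (-0.94), and was 1.29-fold lower in SI (-0.37 ± 0.078, adjusted p = 0.000655). Cdx1 took 50.4% ± 2.96 of the CDX pair per kilobase in SI tissue against 69.3% ± 5.59 in LI tissue, and 46.4% ± 1.49 in SI monolayers against 46.6% ± 0.603 in LI monolayers. The pair summed to 470.1 ± 23.3 CPM per kb in LI tissue and 133 ± 2.51 in LI monolayers, against 307 ± 5.83 and 219 ± 8.69 in SI. Cdx4, a relative of the embryo's tail region, had a group mean of at most 0.392 and was not tested.

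Klf4 fell in culture in both regions, by more than any other member in the fit of all 12 libraries. Without LI tissue replicate 1, the rise of Onecut2 in LI (3.56) was the larger. At chr4:55527143-55532466 on the minus strand, it counted 55618, 54917 and 52990.5 in LI tissue and 12581, 15630 and 12399 in SI tissue. LI monolayers counted 5956, 5908 and 6178 and SI monolayers 3952, 4157 and 3871. Every LI library lay above every SI library of the same preparation, and every tissue library above every monolayer library. The fall was 8.78-fold in LI (-3.13 ± 0.076, adjusted p = 7.67e-15) and 3.31-fold in SI (-1.73 ± 0.072, adjusted p = 1.05e-11). SI against LI was -1.97 ± 0.073 in tissue (adjusted p = 2.8e-12) and -0.56 ± 0.071 in monolayers (adjusted p = 5.34e-06). The summed goblet cell markers were 1156420 to 1447800 in LI tissue, 105352 to 117341 in LI monolayers, 388839 to 615992 in SI tissue and 312487 to 322428 in SI monolayers. In LI, 7 of 7 of them fell with culture, Fcgbp most (-4.37), and in SI 2 of 7 did. Of all tested genes 23.5% were called lower in LI culture and 16.4% in SI culture. Immediate early genes, which respond quickly to handling of cells, summed to 19372 to 23536 and 42877 to 44438 in tissue and monolayers of SI, and 57991 to 61553 and 64629 to 65184 in those of LI. Of the 8, 6 were higher in LI tissue than in SI tissue, as were 11.1% of all tested genes. In LI culture Fos, Fosb and Jun fell, whereas Atf3 (1.05 ± 0.12) and Ier3 (4.6 ± 0.11) rose, and in SI culture 4 rose and none fell. Of all tested genes 14.5% were called higher in LI culture, and 26.1% were called in either direction in SI culture. Fosb (895 in LI tissue, 91.5 in LI monolayers, 37.5 in SI tissue, 46.3 in SI monolayers) and Fos (12447, 2756, 2743 and 2718) were highest in LI tissue, as Klf4 was, while Junb (14793, 25049, 7429 and 16931 in the same groups) and Ier3 (634, 14910.5, 553 and 3057) were highest in LI monolayers. The part of goblet cells or of handling in the Klf4 values was not tested.

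Of 22 relatives of the 9 genes 17 were tested, of which 4 rose and 5 fell in LI culture, and 2 rose and 4 fell in SI culture. Of all tested genes 14.5% were called higher and 23.5% lower in LI culture. In SI culture 26.1% were called in either direction, and 16.4% lower. Klf6, an early response gene of many tissues, rose in culture from 14503, 14313 and 13162 to 50163, 51834 and 51676 in LI (1.92 ± 0.07, adjusted p = 7.23e-13) and from 8453, 10532 and 8609.7 to 20134, 20112 and 19692 in SI (1.15 ± 0.069, adjusted p = 6.06e-10). Klf11 also rose in both regions (2.24 ± 0.16 in LI, 1.09 ± 0.16 in SI), and Klf13 and Klf16 rose in LI (1.09 ± 0.061 and 1.67 ± 0.077). Klf5, which marks proliferating crypt cells, differed little with culture (0.37 ± 0.071 in LI, adjusted p = 0.000217, and -0.076 ± 0.071 in SI, adjusted p = 0.378). Among low-level relatives Klf15 and Klf8 fell in both regions, Klf2 in SI and Klf1 and Klf12 in LI. Klf13 (-0.2 ± 0.06) and Klf9 (-0.3 ± 0.073) were slightly lower in SI monolayers, under the fold minimum. Per kilobase Klf4 stood at 259 ± 4.07 CPM per kb in LI tissue, 66.0 ± 8.5 in SI tissue, 29.5 ± 0.674 in LI monolayers and 20.0 ± 0.74 in SI monolayers. Klf6 stood at 46.1 ± 1.99, 31.2 ± 3.76, 174 ± 1.99 and 69.4 ± 0.733 in the same groups, so that Klf4 was the higher of both in tissue and Klf6 in monolayers.

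**Figure D3:**
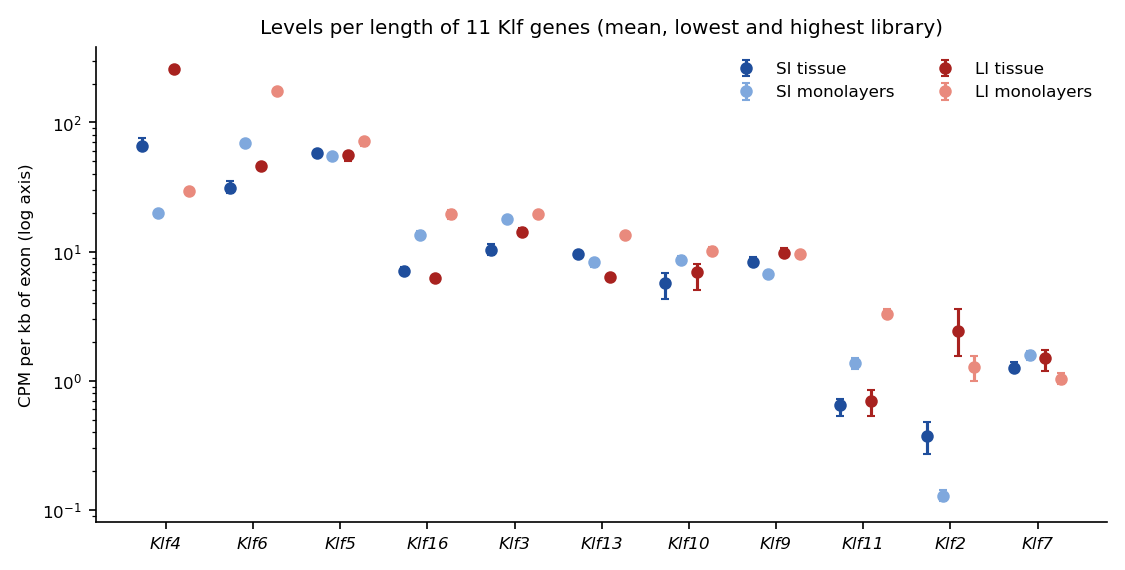
CPM per kilobase of exon (log axis) of the Klf genes whose mean reached 1 in at least 1 group, with the mean of 3 libraries as a point and the lowest and highest library as bars. Klf4 is the highest Klf gene in LI tissue at 259 CPM per kb, and Klf6 in LI monolayers at 174.

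**Figure D4:**
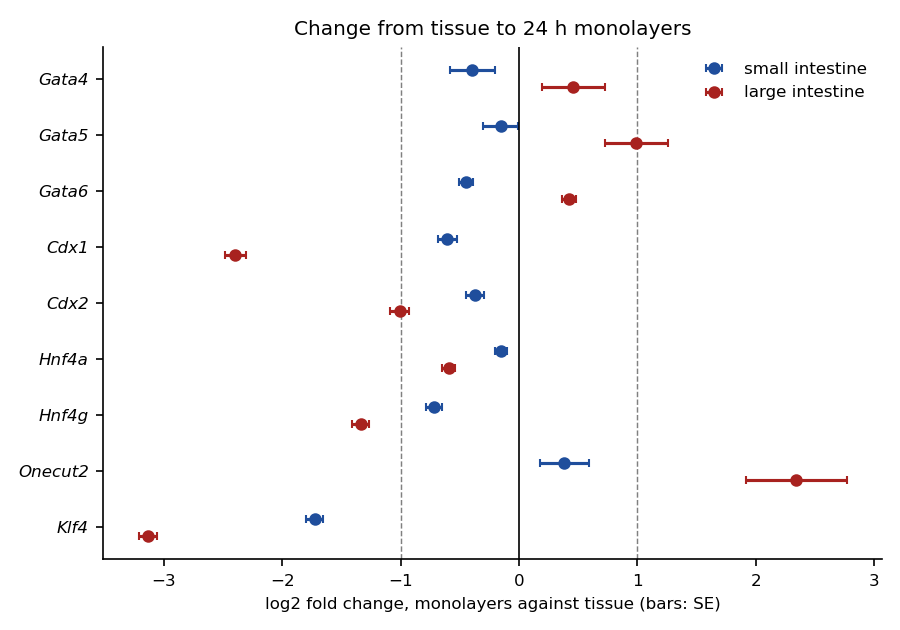
Log2 fold change of monolayers against tissue for each of the 9 genes in SI and LI, with SE bars from edgeR and dashed lines at the fold minimum of 1. Klf4, Cdx1, Cdx2 and Hnf4g lie further to the left in LI than in SI, and Onecut2 further to the right.

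The change with culture differed between regions for several members, which the interaction of region and preparation tests directly. A positive value means that SI monolayers retained more of the SI tissue level than LI monolayers did of theirs. By the same rule 4 of 9 members were called, against 20% of all tested genes, and 8 by the adjusted p alone, against 46.3%. Cdx1 (1.79 ± 0.12, adjusted p = 1.08e-08) and Klf4 (1.41 ± 0.10, adjusted p = 1.57e-08) were positive, with the larger fall in LI. Onecut2 (-1.96 ± 0.48, adjusted p = 0.00624) and Gata5 (-1.14 ± 0.3, adjusted p = 0.00952) were negative, with the higher fold change in LI. Without LI tissue replicate 1 the Onecut2 value was -3.18 and that of Gata4 (-0.85 ± 0.33, adjusted p = 0.0606) became -1.26 and was called. The call of Gata5 was lost without LI tissue replicate 3 (-0.83) or LI monolayer replicate 3 (-0.89). Gata6 (-0.87 ± 0.081, adjusted p = 3.17e-07), Cdx2 (0.64 ± 0.11, adjusted p = 0.000203), Hnf4a (0.44 ± 0.076, adjusted p = 0.000174) and Hnf4g (0.62 ± 0.097, adjusted p = 7.21e-05) passed the adjusted p but not the fold minimum.

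**Figure D5:**
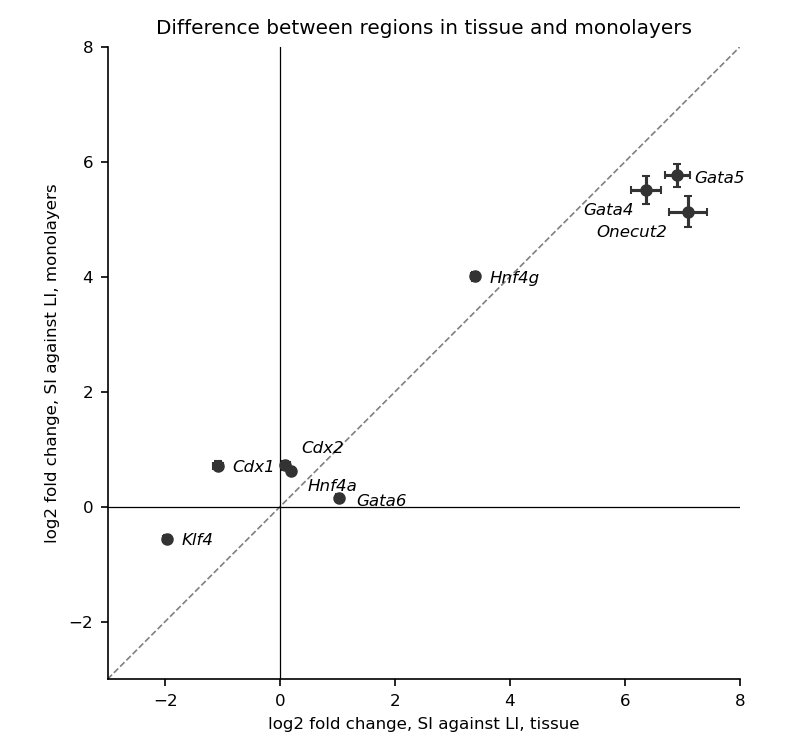
Difference of SI from LI (log2 fold change) in monolayers on the vertical axis and in tissue on the horizontal axis for the 9 genes, with SE bars from edgeR and a dashed line of equal values. Gata4, Gata5, Onecut2 and Hnf4g stay far to the SI side in both preparations, Klf4 stays on the LI side, and Cdx1 crosses from the LI side in tissue to the SI side in monolayers.

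The low LI levels of Gata4, Gata5 and Onecut2 can be set beside genes of jejunal absorption. For 12 such genes LI tissue held 0.234% to 12.1% of the SI tissue mean (median 0.608%), and LI monolayers 1.55% to 20.0% of the SI monolayer mean (median 6.79%). Sucrase-isomaltase (Sis) held 0.815, 0.295 and 0.0912 percent in LI tissue replicates 1, 2 and 3, and the microsomal transfer protein gene Mttp 1.21, 0.499 and 0.279 percent. Replicate 1 was the highest and replicate 3 the lowest for 9 of the 12 genes, as for the 3 factors, but not for Slc5a1, Fabp2 and Apob. Slc5a1 held 7.01, 6.96 and 7.06 percent. Onecut2 held 1.64, 0.425 and 0.207 percent and Gata5 1.27, 0.854 and 0.443 percent. Hnf4g held 10.1, 10.6 and 8.84 percent in the same libraries, with replicate 2 the highest. Whether SI material contributed to the LI tissue values was not tested.

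Genes known to depend on these factors were counted from lists chosen with earlier results known. Of 12 jejunal absorption genes, 12 were higher in SI tissue than in LI tissue (median log2 fold change 7.41, against 0.055 over all tested genes) and 11 in monolayers (median 3.93, against 0.021), with Lct, Slc2a2 and Fabp1 at the largest tissue values (8.8, 8.68 and 8.1). In SI culture 9 of the 12 fell (median -2.66). None of the GATA and HNF4 members was called there. Hnf4g (-0.72 ± 0.067, adjusted p = 1.17e-07), Gata6 (-0.45 ± 0.057, adjusted p = 4.19e-06) and Hnf4a (-0.15 ± 0.054, adjusted p = 0.0236) were lower under the fold minimum. Gata4 (-0.39 ± 0.19) and Gata5 (-0.15 ± 0.15) missed the test. Beside the fall of the jejunal absorption genes, the summed enterocyte markers lay at 734776 to 1122060 in SI tissue and 321710 to 331294 in SI monolayers. Of these markers 4 of 8 were called lower. Sis and Fabp1 are on both lists, with means of 211520 and 77943 in SI tissue and 87549 and 7819 in SI monolayers. Tuft cell markers lay at 16713 to 22960.3 before and 1912 to 2091 after culture (6 of 6 lower), and stem cell markers at 82684 to 108430 and 7685 to 8284 (2 of 6 lower). Of these 6 stem cell markers, Olfm4 went from a mean of 423 to 6.22 CPM per kb, while Lgr5 stood at 0.959 and 1.04. Ascl2, Smoc2, Axin2 and Tnfrsf19 stood at 6.26, 13.4, 11.7 and 1.20 CPM per kb in SI tissue. In SI monolayers these 4 stood at 3.71, 7.90, 5.17 and 0.917. The mitochondrial share of counts was 9.16%, 5.92% and 4.56% in SI tissue and 0.472% to 0.559% in SI monolayers. The part of these in the fall of the jejunal absorption genes was not tested. Lactase (Lct) went from a mean of 42469 to 678 normalized counts (-5.93 ± 0.87, adjusted p = 0.00035). Of 8 HNF4 targets of lipid transport, several of which are also on the jejunal list, 8 were higher in SI in both preparations and 6 fell in SI monolayers (median -2.07), led by Apoa4 (-3.78 ± 0.76, adjusted p = 0.00236). In LI culture 1 of the 8 rose (Apob, 1.44 ± 0.21) and 1 fell (Fabp2, -2.45 ± 0.29). Of 8 CDX2 targets, 2 fell in SI culture, Mep1a (-4.0 ± 0.084) and Muc2 (-2.04 ± 0.18), and 3 in LI culture, Mep1a (-3.81 ± 0.082), Muc2 (-2.8 ± 0.18) and Krt20 (-2.01 ± 0.099), whereas Isx rose in LI (1.81 ± 0.14). Of all tested genes 16.4% were called lower in SI culture and 23.5% in LI culture. The cadherin Cdh17 was 0.95 ± 0.066 higher in LI monolayers (adjusted p = 1.87e-09), short of the fold minimum, while Cdx2 fell.

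Of 5 KLF4 targets, Muc2, the main mucin of goblet cells, fell in both regions, and cyclin D1 (Ccnd1), which KLF4 is known to repress, rose in both (1.93 ± 0.097 in LI and 1.27 ± 0.095 in SI). Ornithine decarboxylase (Odc1) rose in LI (1.03 ± 0.053). The cell cycle inhibitor Cdkn1a, which KLF4 is known to induce, was higher in monolayers of both regions. Its means were 12995 and 25364 in tissue and monolayers of SI, and 21729.8 and 26325 in those of LI. Its libraries did not overlap, at 49.2 to 57.5 and 105 to 111 CPM per kb in SI, and 84.7 to 94.9 and 106 to 114 in LI. Cdkn1a passed the adjusted p in both regions but not the fold minimum. Alpi, intestinal alkaline phosphatase, was lower in SI monolayers, with means of 37120.1 in tissue and 18358 after culture (-0.98 ± 0.33, adjusted p = 0.0312), just short of the fold minimum, and had no call in LI (adjusted p = 0.985). Of 12 stomach genes 6 were tested, of which 1 rose and 2 fell with culture in each region. The share of all tested genes called lower was 16.4% in SI culture and 23.5% in LI culture. Gkn3 (236 to 2.79) and Muc6 (21.7 to 1.82) fell in SI, and Muc6 (17.7 to 2.43) and Atp4a (30.7 to 5.56) in LI. The tight junction gene Cldn18 rose in monolayers of both regions, from 16.5 to 767 in SI (5.62 ± 0.51, adjusted p = 1.46e-06) and from 2.44 to 55.1 in LI (4.48 ± 0.73, adjusted p = 0.000179). The gastric factor Sox2 stayed between means of 3.71 and 13.4 and was not called.

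Among 18 other transcription factors of the gut, Zfpm1 (FOG1), a cofactor of GATA proteins, was higher in SI in both preparations. In SI it counted 7241, 5944 and 6141 in tissue and 7126, 8011 and 8509 in monolayers, and in LI 375, 319 and 453 in tissue and 366, 375 and 397 in monolayers. SI exceeded LI by 4.11 ± 0.13 in tissue and 4.41 ± 0.13 in monolayers (adjusted p = 1.92e-11 and 1.16e-11), and Zfpm1 had no call in culture. Creb3l3 (6.9 ± 0.43 and 4.71 ± 0.4) and Maf (5.74 ± 0.33 and 2.62 ± 0.31), factors of villus enterocytes, were also higher in SI, but both fell in SI culture (-1.68 ± 0.33 and -3.57 ± 0.29). On the LI side, Foxa2 (-2.95 ± 0.15) and Foxa1 (-1.93 ± 0.076) were higher in LI tissue. In culture Foxa1 rose in both regions (2.45 ± 0.077 in SI and 1.03 ± 0.072 in LI).

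The genes most like each member were those with the smallest root mean square difference in centred log2 CPM over the 12 libraries, among 9218 genes of at least 10 mean CPM. This is a description of libraries that share 4 groups, with no test. The nearest to Gata4 were Gata5 (0.296), the organic anion pump Abcc2 (0.335) and Mttp (0.435), and the nearest to Gata5 were Abcc2 (0.223), Gata4 and Lgals2 (0.35). Abcc2 had means of 13437 and 15652 in tissue and monolayers of SI, and 163 and 279 in those of LI. Onecut2 had no near match, with Tm4sf5 at 0.572, Rragd at 0.617 and Abcc2 at 0.622. For Hnf4g they were Fam213b (0.157), Tm6sf2 (0.266) and Dgat1 (0.339), the last of which makes triglycerides. Klf4 was followed most closely by Atp2a3, a calcium pump of the endoplasmic reticulum (0.15), with means of 76144 in LI tissue, 24745 in SI tissue, 9043 in LI monolayers and 6322 in SI monolayers, then by Tmem171 (0.188) and Mfsd4a (0.20). Cdx1 was nearest to Mecr (0.0987), Pkdcc (0.126) and Yipf1 (0.144), Cdx2 to Narf (0.0858), Edem2 (0.111) and Lysmd4 (0.112), and Gata6 to Capn15 (0.0674), Galnt1 (0.071) and Coa7 (0.083). The group means of Hnf4a spanned 0.78 on the log2 scale, under the 1 required for the search.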

How the data were processed

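RNA of 12 libraries was sequenced as paired-end Illumina HiSeq reads. The authors aligned them to GRCm38 with STAR 2.7.9a and counted reads per gene of GENCODE vM25 with featureCounts 2.0.2, and they deposited these counts, which are whole numbers. Strand and mate handling are not given in the sources used here. The authors also deposited a normalized signal, called normalized counts here, for which each library was scaled by 1 size factor from DESeq2. Both tables were used in full.

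Samples were grouped by their labels. Deposited counts were tested with edgeR 4.0.16 in R 4.3.3: filterByExpr by group (19581 genes kept), TMM scaling and robust quasi-likelihood fits in 1 model of 4 group means, with Benjamini-Hochberg adjustment over all tested genes within each of 5 comparisons. The study states no test of differential expression. The SE is the log2 fold change divided by the root of the F statistic. CPM per kb used TMM library sizes and the union of exons, with positions, from another GENCODE release of the same build. Log2 CPM used a prior count of 2. The step was tested on simulated data. The library depth is given in the report.

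The members and all gene lists were chosen with earlier results of these data known. Named genes are the 9 members, their relatives, at most the 3 largest called rises and 3 largest called falls of a list in a comparison, the 3 genes nearest to each member, and genes overlapping a member. Further genes given as levels (Epcam, Ptprc, Lyz2, Kit, Cd8a, Hoxb13, Myh11, Des, Sis, Mttp, Slc5a1, Junb, Lgr5, Ascl2, Smoc2, Tnfrsf19, Cdkn1a, Alpi, Sox2, Cdh17) were picked once their values were known. The alternatives were DESeq2 1.42.0 with its Wald test, DESeq2 size factors in edgeR, upper quartile scaling, no filter on low counts, at least 10 counts in every library, only the groups compared, no minimum fold change, a block for the replicate number, and fits without 1 library.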

Additional observations from a re-analysis of the deposited data

Results flagged for a closer look

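The change from tissue to monolayers differed between SI and LI for 4 of the 9 genes, by edgeR's test of the interaction (monolayers against tissue in SI minus the same in LI, on the log2 scale, with 3 libraries in each of 4 groups). Cdx1 had a value of 1.79 (adjusted p = 1.08e-08) and Klf4 one of 1.41 (adjusted p = 1.57e-08). Gata5 had a value of -1.14 (adjusted p = 0.00952) and Onecut2 one of -1.96 (adjusted p = 0.00624). For Cdx1 and Klf4 every monolayer library lay below every tissue library in both regions. The Gata5 and Onecut2 values rest on LI tissue libraries of 22.3 to 63.9 and 3.57 to 28.2 normalized counts. Of all tested genes, 20% passed the same test.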

How the results depend on the processing

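Over 19 alternatives that kept the minimum fold change, 821 of 841 values of the 9 genes kept their direction and their side of the threshold, 16 lost their call, 3 gained one and 1 changed sign. The 841 include fits without a library of a group outside the comparison. Such fits keep all libraries compared, so they are a weaker check of those values. The exception in sign was Cdx2 between SI and LI tissue, at -0.024 (edgeR adjusted p = 0.751) without LI tissue replicate 3, within a range of -0.024 to 0.15 over the fits without 1 library. Without the minimum fold change, 6 members passed the adjusted p in SI culture (59.6% of all genes), 8 in LI culture (68.7%), 9 between monolayers (51.8%) and 8 for the interaction (46.3%). Leaving out 1 library gave 1 to 1 called members in SI culture, 4 to 6 in LI culture, 6 to 7 between tissues, 4 to 4 between monolayers and 3 to 5 for the interaction. Gata6 between tissues fell below the fold minimum under upper quartile scaling (0.95), without a filter (0.97), with at least 10 counts in every library (0.99) and in a fit of both tissue groups alone (0.96). Upper quartile scaling moved the median of all genes by -0.12 in LI culture. In a fit of the SI groups alone, Gata4 was at -0.36 (adjusted p = 0.00027), Onecut2 at 0.41 (adjusted p = 0.00263) and Hnf4a at -0.12 (adjusted p = 0.0882). Onecut2 was not tested with at least 10 counts in every library. Same-numbered libraries did not deviate together (r between -0.0516 and 0.0563), and with the replicate number as a block the called members stayed at 1, 5, 7, 4 and 4. In LI tissue, the 4 to 30 counts of Onecut2 limit the precision of its folds.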
